A study of Oncorhynchus gorbuscha with 76 samples.

Results

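Ion channel genes of the pink salmon (Oncorhynchus gorbuscha) were followed through the return migration in muscle, head kidney and gonads of both sexes. Members were all rows of the count tables whose symbol matched the naming patterns of potassium, sodium, calcium, chloride and TRP channels, anoctamins, calcium release channels, and nicotinic, purinergic, glutamate, GABA and glycine receptors, with 1 matching gene left out by the rule. The patterns found 108 genes among 40756, of which 8117 carry a symbol and 32639 carry only a LOC number, so a channel known only by a LOC number is not counted here. The symbols pick up 2 genes that encode no channel subunit: trpc4apa, named for a protein that binds the channel TRPC4, and grinaa, named for a glutamate receptor-associated protein of the TMBIM family. They were kept, as the rule has it.

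Ion channels are membrane pores that open to voltage, a ligand, a second messenger or stretch. In skeletal muscle, nicotinic receptors and sodium channels carry the signal to contract, and ryanodine receptors then release calcium from the sarcoplasmic reticulum. In kidney tubules, channels work beside cotransporters to move salt, and in gonads, channels of germ cells and of the somatic cells around them set calcium entry and membrane potential.

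The series holds 76 libraries from 28 fish, labelled by stage (ocean, river or spawning), sex, tissue and a fish number, with 3 to 5 libraries in each of 18 groups. Per the labels, tissue was kept in RNAlater, RNA was extracted with trizol, and poly(A)-enriched libraries were sequenced. The labels name no treatment, age or genotype beyond stage and sex. Every stage comparison sets different fish against each other, and the spread is between fish. The gonads of females and males are called ovary and testis below.

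Library totals were 12719694 to 17696550 estimated counts in gonads, 13651505 to 18724203 in head kidney and 15784611 to 29286325 in muscle. The 108 members together took 0.0258 to 0.168% of the counts in gonads, 0.0549 to 0.153% in head kidney and 0.0253 to 0.179% in muscle. One member, kcnj1a.1, had no count in any library, and 24 members, that one included, stayed under 10 counts in every library. A filter on low counts left 63 members tested in at least 1 of the 6 combinations of tissue and sex, 16 of them in all 6, and 45 in none. Levels are given in CPM, read counts scaled within a tissue and sex to library size adjusted by edgeR's TMM factors. They are therefore not shares of a library's total counts, and differ from levels scaled to library size alone. Statements that groups overlap or not refer to this scale, except where tissues are compared. Salmonids carry duplicated genes, and reads shared between near-identical copies may be split among them, so a value stands for a named row and may be uncertain where a close copy exists.

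The tissue labels were checked against marker genes. Skeletal muscle markers (4 of 12 listed are in the files) summed to 7167 to 11900 CPM in muscle of ocean females and to at most 6.75 CPM in every head kidney and gonad group. Of the 4, mylpfb had no count in ocean muscle of either sex, and the muscle sum came mostly from myl1 and tnnt3a. The female gonads held almost no oocyte RNA by the markers used: gdf9 and figla, made in oocytes, were at 0 in every ocean and river ovary and reached at most 8.05 and 5.46 CPM at spawning. Ovary markers (4 of 9 listed are in the files) summed to 0.563 to 27.8 CPM in the 5 spawning ovaries, with a median of 1.04 CPM. Most spawning ovaries were therefore low as well. Head kidney libraries differed among themselves in tubule and steroid-producing tissue, and their values are given beside the results they touch. Because these are bulk tissues, fewer cells of a type and less RNA per cell cannot be told apart.

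Before the stages were compared, the ocean libraries were used to ask where each member was most abundant. A gene was placed in a tissue when its lowest library there exceeded the highest library of both other tissues of that sex, on one CPM scale over all libraries. Of 71 members passing a filter over all libraries, 9 were placed in muscle, 11 in head kidney and 8 in ovary in females, against 16.6%, 18.0% and 12.9% of all 34466 genes. In males 8 were placed in muscle, 7 in head kidney and 19 in testis, against 12.1%, 15.2% and 24.2% of all genes.

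Both sexes placed the ryanodine receptors ryr1b and ryr3, the acetylcholine receptor subunits chrnb1 and chrnd, the purinergic receptor p2rx5, the potassium channel kcnc2, the anoctamin ano8b and trpc4apa in muscle. In ocean females p2rx5, an ATP-gated cation channel, ranged from 42.4 to 101 CPM in muscle and reached at most 0.0886 CPM in the other tissues. In the same fish kcnc2, a fast voltage-gated potassium channel, ranged from 64.3 to 81.3 CPM in muscle and from 0 to 0.257 CPM in head kidney. For both genes the muscle libraries stood far above the others compared here. The sodium channel scn4ab was not: it ranged from 121 to 490 CPM in ovary, above its 35.2 to 87.3 CPM in muscle of ocean females.

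Head kidney held kcnq5a, clic1, p2rx4a and kcnj15 above the other tissues in both sexes. For kcnq5a, a slowly activating voltage-gated potassium channel, ocean females ranged from 118 to 154 CPM in head kidney and from 0.079 to 3.76 CPM in muscle. The 19 members placed in testis, of 71, were the glutamate receptor subunits grin1a and grin1b, the GABA and glycine receptor subunits gabrb2a, gabrd, glra4a and glrbb, the potassium channels kcnb2b, kcng1, kcnh3, kcnj6, kcnj11l, kcnk4a and kcnq3, the calcium channel subunits cacna1fb, cacnb2b and cacng4b, the receptors p2rx2 and p2rx3a, and grinaa. Many of these levels were low, for example 2.1 to 5.74 CPM of kcnj6 in ocean testis and 0 in all ocean ovaries. Those placed in ovary were cacng4b, cacng5b, clic2, gria4a, kcnd1, kcnd3, scn3b and trpv4.

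**Figure D1:**
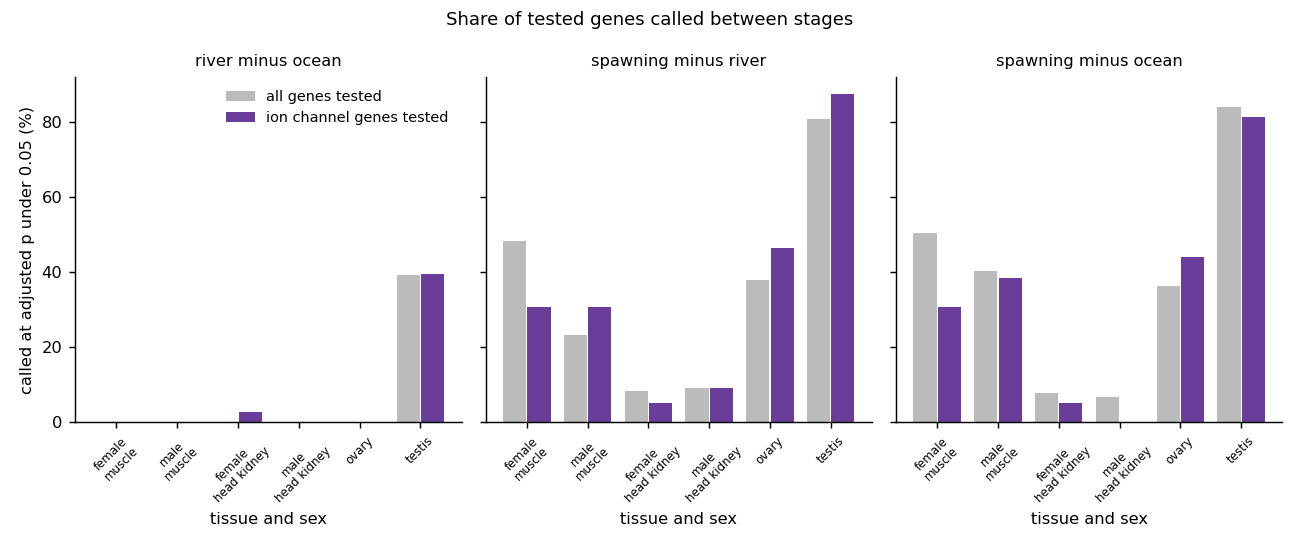
Share of tested genes called at an adjusted p under 0.05, in percent, for ion channel genes (purple) and all genes (grey), by tissue and sex, in each pair of stages. The testis bars are the tallest in all 3 panels, and purple bars stand below grey ones in muscle for spawning against ocean fish.

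Across the 6 combinations, 53 members were called between spawning and ocean fish in at least 1 and 16 in at least 2 of 63 tested, by edgeR's quasi-likelihood test with Benjamini-Hochberg adjustment over all genes. Those are 84.1% and 25.4% of the tested members, beside 85.7% and 51% of the 32969 genes tested. These shares are not like for like, since members were tested in fewer combinations per gene. In female muscle, for example, 26 of the 63 members and 21695 of the 32969 genes were tested. The plot of called shares shows how unevenly the calls fall. Most calls were in testis, fewer in ovary and muscle, and few in head kidney, as for all genes.

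In muscle of both sexes, the ryanodine receptors ryr1b and ryr3 and the ATP receptor p2rx5 were far lower in spawning fish, while the voltage-gated sodium channels and acetylcholine receptor subunits were not called. In females 2 members rose and 6 fell of 26 tested between ocean and spawning (30.8% of members, against 50.5% of all genes, of which 25.8% rose and 24.7% fell). In males 4 rose and 6 fell of 26 (38.5%, against 40.2%, with 20.2% higher and 20.0% lower). The members' median log2 difference was -0.23 in females and 0.20 in males, with -0.01 and 0.03 over all genes. Of 22 members tested in both sexes, 6 (27.3%, against 31.4% of all genes) were called in the same direction in both: ryr1b, ryr3, p2rx5 and cacna2d3a fell, and gabrd and grinaa rose.

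The ryanodine receptor ryr1b, the calcium release channel of skeletal muscle, measured 385, 267, 416 and 316 CPM in the 4 ocean females and 404, 429, 797 and 382 CPM in the river females. In spawning females ryr1b was 57.2, 29.9, 55.1 and 71.7 CPM. Every spawning female was below every ocean and river female, with a log2 difference from ocean of -2.69 ± 0.34 (SE, adjusted p = 4.29e-05). In males ryr1b measured 651, 441, 520 and 353 CPM in ocean fish and 47.9, 42.6 and 32.9 CPM in spawning fish, a difference of -3.58 ± 0.71 (adjusted p = 0.00403). The river males were at 555, 482, 580 and 643 CPM, except river male 6 at 45.5 CPM, inside the spawning range.

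Its relative ryr3, which in fish muscle works beside ryr1 in calcium release, followed the same order. Ocean females measured 557, 371, 798 and 538 CPM of ryr3 and spawning females 67.6, 26.2, 49.9 and 101 CPM, a log2 difference of -3.21 ± 0.44 (adjusted p = 6.66e-05). Ocean males measured 855, 728, 514 and 608 CPM and spawning males 21.8, 9.56 and 10.3 CPM, a difference of -5.6 ± 0.96 (adjusted p = 0.0025). Neither pair of ocean and spawning groups overlapped. River male 6 had 24.2 CPM of ryr3, where the other river males had 385 to 794. The third calcium release channel, the inositol trisphosphate receptor itpr1b, was at 2.00 CPM or less in every female muscle library, was not called in females and was below the filter in males.

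The purinergic receptor p2rx5 measured 59.1, 21.9, 39.5 and 41.8 CPM in ocean females and 2.51, 1.90, 1.85 and 11.3 CPM in spawning females, a log2 difference of -3.21 ± 0.57 (adjusted p = 0.00044). In males it went from 42.3, 68.5, 38.8 and 100 CPM to 3.10, 2.13 and 4.45 CPM, a difference of -4.27 ± 0.74 (adjusted p = 0.00254). The stages did not overlap in either sex, and river male 6, at 4.32 CPM, was again within the spawning range. The calcium channel subunit cacna2d3a, which helps bring voltage-gated calcium channels to the surface, was scarce: 1.1, 0.531, 1.15 and 0.356 CPM in ocean females and at most 0.233 CPM in spawning females (-2.55 ± 0.56, adjusted p = 0.00189). In males cacna2d3a had 25 counts over all ocean muscle libraries and 1 over the spawning ones, a ratio of 15.9 with a 95% counting interval of 2.61 to 654 (adjusted p = 0.027), and 1 ocean male held most of the 25. With library size alone the male cacna2d3a difference was -3.50 and was not called (adjusted p = 0.0597).

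Some members were called in 1 sex only. In females kcnab2a, an auxiliary subunit of voltage-gated potassium channels, fell by 1.97 on the log2 scale (SE 0.44, adjusted p = 0.00238), with 2.82 to 12.0 CPM in ocean fish and 0.977 to 3.18 CPM in spawning fish, so that 1 ocean female lay within the spawning range. The calcium-permeable channel trpv4 fell by 1.41 (SE 0.35, adjusted p = 0.00473) from 1.49, 2.04, 3.20 and 2.13 CPM to 1.12, 0.66, 0.672 and 0.877 CPM. In males trpc4apa went from 43.1, 36.5, 49.3 and 34.8 CPM to 11, 10.3 and 11.4 CPM (-1.91 ± 0.35, adjusted p = 0.00305), and ano8b from 24.5, 28.1, 25.1 and 9.38 CPM to 4.45, 8.64 and 7.38 CPM (-1.68 ± 0.45, adjusted p = 0.0122). The calls for trpv4, trpc4apa and ano8b depended on the scaling: with library size alone their adjusted p was 0.167, 0.104 and 0.261.

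With TMM scaling, fewer members rose in muscle than fell, both with the filter on low counts and without it. Without the filter 5 rose and 6 fell of 85 tested in females, and 3 rose and 6 fell of 72 in males. Over all genes 5648 rose and 5803 fell of 35847 in females, and 4265 rose and 4032 fell of 35382 in males. With library size alone and the filter, 7 members rose and 5 fell in females, and 12 rose and 3 fell in males. The balance therefore depended on scaling. The gene grinaa went from 2.66, 2.53, 2.63 and 2.18 CPM in ocean females to 13.7, 10.1, 10.4 and 6.58 CPM in spawning females (2.03 ± 0.26, adjusted p = 4.8e-05). In males grinaa went from 1.45, 2.91, 2.00 and 2.32 CPM to 6.08, 5.27 and 12.7 CPM (1.88 ± 0.51, adjusted p = 0.0132). Spawning and ocean fish did not overlap in either sex. A GABA receptor subunit, gabrd, was higher by 1.72 ± 0.66 in females (adjusted p = 0.0433) and by 2.89 ± 0.89 in males (adjusted p = 0.0228), at 4.5 CPM or less in every muscle library. In females the gabrd groups overlapped, since spawning female 5 had 0.329 CPM and ocean fish ran up to 0.735. Leaving out single libraries gave 0.99 to 2.05 in females, with the gabrd call lost in 7 of 12, and 2.21 to 3.32 in males, with it lost in 3 of 12. Without the filter the female call was lost too (adjusted p = 0.0559).

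The remaining rises in males were of very low genes. The inward rectifier kcnj15 had 0 counts in the ocean males and 54 over the 3 spawning males, which is at least 28.2-fold higher against a floor of 3 counts over the group (adjusted p = 0.0133). A T-type calcium channel, cacna1g, had at most 0.442 CPM in ocean males and 0.581, 1.2 and 2.62 CPM in spawning males (2.73 ± 1.02, adjusted p = 0.0481). Without spawning male 9 the male total was 6 calls (1 higher, 5 lower) in place of 10.

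The channels that start the muscle action potential were not called between ocean and spawning. The sodium channel scn4ab measured 20.5, 34.7, 50.7 and 22.2 CPM in ocean females and 13.9, 14.1, 65.4 and 19.7 CPM in spawning females (-0.18 ± 0.48, adjusted p = 0.781). Its duplicate scn4aa was at 5.71 to 9.65 CPM in ocean females and 5.54 to 23.8 CPM in spawning females (0.69 ± 0.37, adjusted p = 0.137). Males differed by 0.46 ± 0.52 for scn4ab and 0.14 ± 0.35 for scn4aa. All of these groups overlapped.

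The acetylcholine receptor subunit of the motor endplate chrnb1 measured 16.7, 33.7, 20.1 and 32.6 CPM in ocean females and 29.8, 25.1, 65.0 and 29.3 CPM in spawning females (0.53 ± 0.33, adjusted p = 0.191). In males chrnb1 differed by -0.71 ± 0.51 (adjusted p = 0.281), with ocean male 9 at 3.42 CPM and the other ocean males at 22.8 to 25.0 CPM. The second endplate subunit, chrnd, was at 1.92 CPM or less in every muscle library and differed by -0.44 in both sexes (SE 0.45 in females and 0.75 in males). The potassium channel kcnc2 was at 33.8 to 45.8 CPM in ocean females and 36.0 to 71.9 CPM in spawning females (0.33 ± 0.24, adjusted p = 0.272). A missed threshold does not show that these levels were equal.

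**Figure D2:**
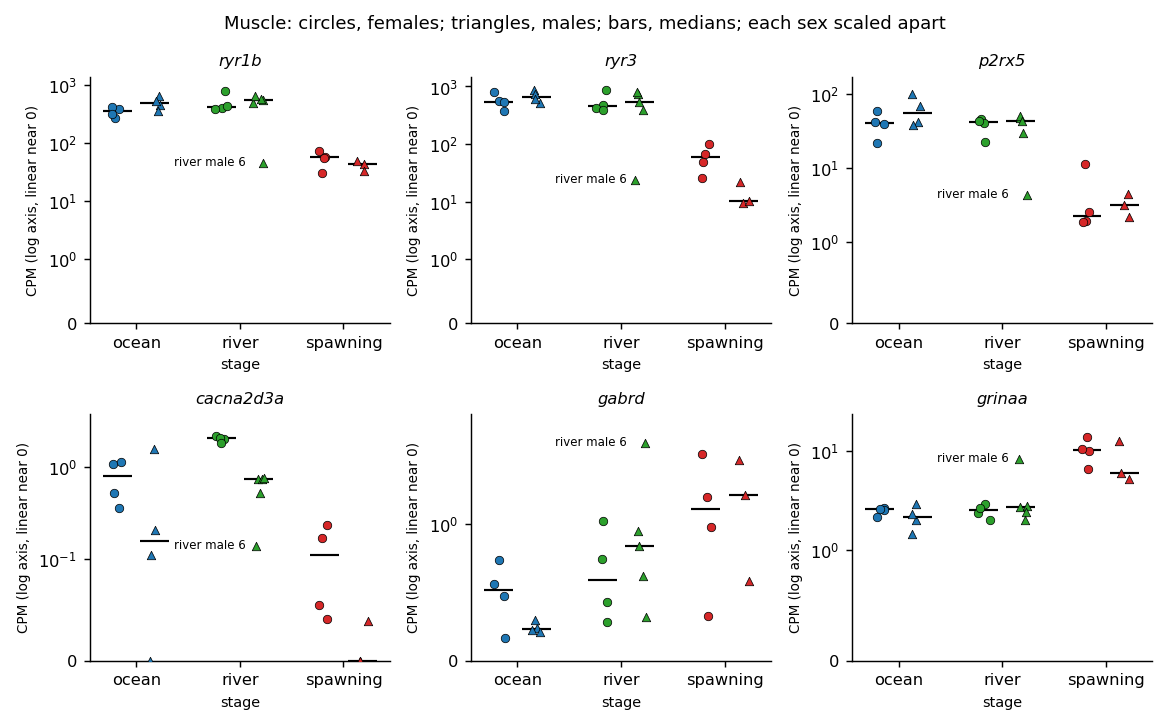
Level of 6 members in every muscle library in CPM (log axis, linear near 0) by stage, with circles for females, triangles for males and bars for medians. Spawning fish lie below ocean fish for ryr1b, ryr3 and p2rx5, and river male 6 sits with the spawning fish.

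Genes that work with these channels moved as follows. Between ocean and spawning, 25.8% of all genes tested in muscle rose and 24.7% fell in females. In males 20.2% rose and 20.0% fell. Of 34 excitation-contraction partners listed, 10 are in the files and 7 were tested in muscle. In females 5 of the 7 fell, namely trdn, bin1b, dmd, cav3 and fkbp1aa, and none rose. In males 4 fell: trdn, bin1b, dmd and cav3. The triadin gene trdn, whose protein anchors the ryanodine receptor at the calcium store, fell by 4.63 (SE 0.63, adjusted p = 7.02e-05) in females and by 6.62 (SE 1.01, adjusted p = 0.00196) in males.

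Of 10 endplate partners listed, 4 were in the files and tested. Their counts and those of the pumps below stand beside the same all-gene shares. In females the acetylcholinesterase gene ache fell and no other was called, and in males ache, lrp4, musk and rapsn all fell. Of 7 pump and cotransporter genes tested, 1 rose and 2 fell in females, and 2 rose and 2 fell in males. The sodium-calcium exchanger slc8a3 fell in both, by 3.93 (SE 0.48) in females and by 6.61 (SE 1.09) in males, and the potassium-chloride cotransporter slc12a7b rose in both.

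Muscle-fibre markers were also lower in spawning than in ocean fish, in a sum made mostly of myl1 and tnnt3a. The summed skeletal muscle markers went from 7167 to 11900 CPM in ocean females to 269.7 to 2936 CPM in spawning females, and from 7642 to 22019 CPM to 614 to 1178 CPM in males. River fish had 5491 to 9882 CPM in females and 1124 to 8536 CPM in males. The markers differed at that step. In females tnnt3a was at 3881 to 6199 CPM in ocean fish and 1276 to 2506 CPM in river fish. For myl1 the values were 2974 to 5663 and 3898 to 7346 CPM, and ryr1b was not lower in river females either. The part of these markers in the channel results was not tested. The direction balance also depended on scaling: with library size alone the all-gene median shifted to 0.76 in females and 1.18 in males, and the calls became 7 higher and 5 lower in females and 12 higher and 3 lower in males, in place of 2 and 6 and of 4 and 6. Differences in muscle are thus relative to the median gene of these libraries. With library size alone ryr1b, ryr3 and p2rx5 were still lower at spawning in both sexes.

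Calls in muscle came with the step to spawning. Between ocean and river no member was called in either sex, with 2 members at an unadjusted p under 0.05 in females and 4 in males, none by DESeq2, and 0.0415% (0.0138% higher, 0.0277% lower) and 0.145% (0.0363% higher, 0.109% lower) of all genes called. From river to spawning 2 members rose and 6 fell in females (48.3% of all genes called, 24.9% higher and 23.5% lower), and 3 rose and 5 fell in males (23.3%, 8.36% higher and 14.9% lower). Without the filter these became 5 and 5 of 85 in females and 1 and 5 of 72 in males. Over all genes 5341 rose and 5245 fell of 35847 in females, and 1530 rose and 2871 fell of 35382 in males. This comparison shares its spawning libraries with the one above. In females ryr1b fell by 3.23 (SE 0.35) and cacna2d3a by 3.97 (SE 0.55), the latter from 2.05, 2.22, 2.11 and 1.82 CPM in river fish to at most 0.233 CPM.

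Some calls from river to spawning did not hold when libraries were left out. In females ano8b was higher by 1.25 ± 0.42 (adjusted p = 0.0246), at 11.6, 8.36, 9.37 and 7.40 CPM in river fish and 14.7, 11.6, 45.9 and 15.0 CPM in spawning fish, and without spawning female 4, which had the 45.9, its log2 difference was 0.60 and was not called. In males clic1 (1.02 ± 0.31, adjusted p = 0.0343) and kcnc2 (0.82 ± 0.26, adjusted p = 0.04) were higher at spawning without overlap of the groups, but with 1 of the 12 libraries left out the clic1 call was lost in 6 cases (0.64 to 1.23) and the kcnc2 call in 7 (0.65 to 0.96), with the direction kept. Without river male 6 the male total was 13 calls (7 higher, 6 lower) in place of 8, and without spawning female 5 the female total was 13 (7 higher, 6 lower) in place of 8. River male 6 also had the lowest skeletal muscle marker sum of the river males, 1124 CPM. Whether that library's label or the fish itself is unusual cannot be told apart from these files.

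No member was called for a different stage effect in the sexes: the sex by stage interaction called 0 of 33 members in muscle (0.0506% of all genes, 0.0337% higher and 0.0169% lower) and 0 of 40 in head kidney (0.00%), with 5 members at an unadjusted p under 0.05 in each tissue and 0 by DESeq2. The smallest adjusted p in muscle were 0.243 for itpr1b, 0.258 for ano8b, 0.275 for ryr3 and 0.277 for trpc4apa. In head kidney the smallest were 0.942 for trpc1 and 0.988 for grin3bb.

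In head kidney, the blood-forming and steroid-producing front part of the fish kidney, few channel genes changed with stage. The magnesium-permeable channel kinase trpm7 fell in females from ocean to spawning and the chloride intracellular channel clic1 rose in males from river to spawning, and both calls held with each single library left out. Between ocean and spawning 0 members rose and 2 fell of 38 tested in females (7.92% of all genes called, 4.77% higher and 3.15% lower). In males 0 of 33 were called (6.76% of all genes, 4.17% higher and 2.60% lower), with 6 members at an unadjusted p under 0.05 and 5 called by DESeq2. The members' median log2 difference was 0.17 in females and -0.11 in males, against -0.06 and -0.10 over all genes.

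Female trpm7 measured 69.2, 85.5, 66.9 and 88.8 CPM in ocean fish, 38.3, 20.2, 32.0 and 35.1 CPM in river fish and 35.4, 41.7, 37.7 and 43.9 CPM in spawning fish. All ocean females were above all river and spawning females. The log2 difference from ocean was -0.97 ± 0.19 at spawning (adjusted p = 0.0129) and -1.31 ± 0.19 in the river (adjusted p = 0.0455), where trpm7 was the 1 member of 38 called (0.117% of all genes, 0.0256% higher and 0.0913% lower). The river call was lost on leaving out 10 of the single libraries, and with a tubule marker score as a covariate (adjusted p = 0.0639). With that score the female difference at spawning was -0.88 and was still called (adjusted p = 0.0349). Ocean males were at 75.2, 31.5, 31.3 and 37.9 CPM of trpm7. The male difference from ocean at spawning was -0.51 and was not called.

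The two-pore potassium channel kcnk5a measured 2.16, 3.68, 2.71 and 3.86 CPM in ocean females and 0, 0.251, 0 and 0.322 CPM in spawning females, a log2 difference of -4.39 ± 1.14 (adjusted p = 0.0378). The groups did not overlap, and the call was lost without any single one of the 8 ocean or spawning libraries. Its river values of 0.071, 0, 0.620 and 0.602 CPM were also below the ocean range.

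From river to spawning, which uses the same spawning libraries, 1 member rose and 1 fell in females (8.46% of all genes called, 3.90% higher and 4.56% lower) and 1 rose and 2 fell in males (9.22%, 4.30% higher and 4.92% lower). In males the chloride intracellular channel clic1, abundant in leukocytes, rose from 136, 168, 124 and 145 CPM to 276, 286, 246 and 273 CPM (0.92 ± 0.15, adjusted p = 0.00551), with no overlap of the groups. Against ocean males, at 199, 207, 210 and 148 CPM, the clic1 difference was 0.50 ± 0.15 (adjusted p = 0.0702). The male falls were kcnj11l, an inward rectifier, by 1.08 (SE 0.25, adjusted p = 0.023), and chrna2a, an acetylcholine receptor subunit at 2.56 CPM or less, by 2.26 (SE 0.62, adjusted p = 0.0437). Neither fall was called without river male 3 or 6, or without spawning male 6, 7 or 9. In females p2rx4a fell by 0.63 (SE 0.17, adjusted p = 0.0388), a call lost without most single libraries. Between ocean and river no male member was called (0.00% of all genes, 2 members at an unadjusted p under 0.05, 0 by DESeq2).

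The potassium channel kcnj15, known in kidney epithelium, rose from river to spawning in females, from 52.0, 5.55, 6.89 and 7.75 CPM to 124, 110, 146 and 333 CPM (3.30 ± 0.73, adjusted p = 0.0186). Without river female 9 the adjusted p was 0.0519. Against ocean the kcnj15 difference was 1.48 in females (adjusted p = 0.209) and 2.89 in males (adjusted p = 0.253), although spawning and ocean females did not overlap.

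Tubule content differed among the head kidney libraries and moved with some of these genes. The thiazide-sensitive cotransporter slc12a3, a distal tubule marker, ranged from 0 to 977 CPM, and renal tubule markers (8 of 17 listed are in the files) summed to 576 to 894 CPM in ocean females, 4.69 to 595 in river females and 6.27 to 1652 in spawning females. In libraries with slc12a3 above 1 CPM, the kidney chloride channel clcnk ranged from 14.6 to 54.5 CPM in ocean, 26.4 to 39.1 in river and 1.47 to 135 in spawning fish. In libraries below 1 CPM, clcnk stayed at or under 0.668 CPM at every stage. At each stage clcnk was therefore high or low with slc12a3.

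The pattern of kcnj15 was different. Above 1 CPM of slc12a3 it ranged from 22.1 to 79.4 CPM in 6 ocean libraries, 38 to 54.3 in 3 river libraries and 110 to 167 in 4 spawning libraries. Below 1 CPM it was 0.324 to 0.795 CPM in 2 ocean libraries, 1.46 to 7.75 in 5 river libraries and 141 to 333 in 4 spawning libraries. Spawning kcnj15 was thus above the ocean and river libraries on both sides of that line. However, the sexes were scaled apart, and the 2 ocean libraries below it were both of males. With a tubule marker score as a covariate, the male difference from ocean was 6.72 ± 0.82 (adjusted p = 0.00126), and the female difference was 2.16 and was not called (adjusted p = 0.109). That fit gives the score the same slope at every stage, although kcnj15 was low below the line in ocean and river fish only. The part of tubule content in the kcnj15 levels was not tested. Without the score, leaving out river female 1 gave a female difference of 1.48 that was called (adjusted p = 0.0255). With the same score, clcnk in females was higher at spawning by 1.46 ± 0.35 (adjusted p = 0.0282). By contrast kcnq5a was at 78.6 to 442 CPM in every head kidney library, and was not called in any stage comparison.

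Steroid-producing interrenal tissue varied too. The steroidogenic gene star measured 3719 CPM in spawning female 4, 3321 in river female 8, 2029 in ocean male 9, 895 in spawning male 10 and 660 in spawning female 5, and 292 or less in the other head kidney libraries. River female 8 also had the highest head kidney values of cacna1fb (23.6 CPM), kcnd3 (11.6 CPM) and kcnip4a (12.3 CPM), and ocean male 9 of trpc1 (13.2 CPM). None of these 4 members was called by stage in head kidney. Whether interrenal content bears on them was not tested.

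In ovary, potassium channels of several families and the auxiliary sodium channel subunit scn1ba rose toward spawning, while the calcium channel subunit cacng5b, the receptor subunits glrbb and gria4a, and the calcium release channel itpr1b fell. Between ocean and spawning 11 members rose and 7 fell of 41 tested (43.9%, against 36.3% of all genes, 16.3% higher and 20.0% lower). Their median log2 difference was 0.16, against -0.02 over all genes. With library size alone 12 members rose and 7 fell. Over all genes 6148 then rose and 4238 fell, in place of 4608 and 5678. Between ocean and river no member was called (0.00% of all genes, 3 members at an unadjusted p under 0.05, 0 by DESeq2), and from river to spawning 10 rose and 9 fell (37.9% of all genes, 16.8% higher and 21.0% lower).

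The inward rectifier kcnj15 rose most in ovary, from 0.0699, 0.213, 0.359 and 0.0624 CPM in ocean fish to 2.47, 3.22, 3.16, 2.00 and 9.94 CPM at spawning (4.49 ± 0.67, adjusted p = 0.000279). The acid-sensitive two-pore channel kcnk3b went from at most 0.355 CPM in ocean fish to 1.76, 3.34, 6.18, 3.00 and 1.21 CPM (4.17 ± 0.95, adjusted p = 0.00446). Neither pair of groups overlapped, and river ovaries, at 0.187 CPM or less of kcnj15 and 0.348 CPM or less of kcnk3b, were with the ocean ones. The mechanically gated two-pore channel kcnk4a rose by 1.73 ± 0.53 (adjusted p = 0.0214), from 4.05 to 8.32 CPM in ocean fish to 10.4 to 32.5 CPM. Both two-pore channels tested in ovary rose, as did 16.3% of all genes, although the call for kcnk4a was lost without ocean female 5 or 7.

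Voltage-gated potassium channels gave smaller or more variable changes. The A-type channel kcna4 measured 0.280, 0.0711, 0.120 and 0.437 CPM in ocean ovaries and 1.5, 2.27, 1.22, 1.56 and 0.667 CPM at spawning (2.62 ± 0.62, adjusted p = 0.00534). Another A-type channel, kcnd1, measured 12.6, 2.15, 25.7, 1.38 and 3.45 CPM at spawning against 0.427 to 1.81 CPM in ocean fish (3.00 ± 1.04, adjusted p = 0.0386). Spawning females 1 and 3 carried most of the kcnd1 difference, the groups overlapped, and the call was lost on leaving out 6 of the single libraries. The gene kcnip4a, whose protein binds A-type channels, rose by 2.28 ± 0.73 (adjusted p = 0.0278), a call lost without ocean female 2 or spawning female 4. Of 7 voltage-gated potassium channel genes tested in ovary, 3 rose and 1 fell, the last being the auxiliary subunit kcnab2a (-4.43 ± 0.96, adjusted p = 0.00325), from 0.437 to 3.20 CPM to at most 0.288 CPM. Over all genes tested in ovary, 16.3% rose and 20.0% fell.

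Sodium channel subunits moved both ways. The auxiliary subunit scn1ba rose by 3.06 ± 0.82 (adjusted p = 0.0113), to 2.60, 1.49, 0.431, 1.00 and 3.39 CPM with 1 ocean ovary in that range, and from river to spawning it went from 1 count over the group to 143, a ratio of 118 with a 95% counting interval of 20.8 to 4688. The pore subunit scn1laa fell by 3.25 (SE 0.66, adjusted p = 0.00221), from 2.17, 1.56, 0.777 and 0.686 CPM to at most 0.325 CPM. The abundant scn4ab was not called, at 712, 318, 276 and 171 CPM in ocean ovaries and 251, 114, 207, 63.1 and 107 CPM at spawning (-1.32 ± 0.51, adjusted p = 0.0601).

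Calcium channel subunits also split. In ovary cacna2d3a rose from 0.699, 0.427, 1.02 and 0.374 CPM to 8.59, 2.86, 2.16, 4.88 and 2.12 CPM (2.69 ± 0.61, adjusted p = 0.0041), the opposite direction to muscle. The auxiliary subunit cacng5b fell from 4.89, 8.10, 1.79 and 1.12 CPM to 0.195, 0.0596, 0.360, 0.0626 and 0.364 CPM (-4.21 ± 0.74, adjusted p = 0.000848). Neither pair of groups overlapped.

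Among receptors and calcium release channels in ovary, the falls were of low genes. The AMPA receptor subunit gria4a fell by 1.57 (SE 0.33, adjusted p = 0.00259), from 2.66 to 5.80 CPM to 1.09 to 2.01 CPM, and itpr1b by 1.95 (SE 0.38, adjusted p = 0.00166), from 1.75 to 2.73 CPM to 0.288 to 0.909 CPM. Neither overlapped. The glycine receptor subunit glrbb fell by 3.01 (SE 0.87, adjusted p = 0.0164), with levels of 0.686 CPM or less throughout this comparison.

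More abundant members changed by less. The chloride intracellular channel clic1 rose by 0.93 ± 0.21 (adjusted p = 0.00446), from 41.9, 39.7, 55.7 and 68.2 CPM to 135, 109, 69.3, 98.1 and 77.7 CPM. The channel kinase trpm7 rose by 0.62 ± 0.14 (adjusted p = 0.00353), from 33.7 to 36.7 CPM to 37.9 to 62.2 CPM, whereas trpv4 fell by 0.82 (SE 0.16, adjusted p = 0.00178), from 17.2, 21.9, 20.9 and 17.5 CPM to 10.4, 10.1, 8.77, 11.8 and 13.8 CPM. None of these groups overlapped. The rise of trpc4apa (0.46 ± 0.14, adjusted p = 0.0197) was lost without ocean female 2.

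From river to spawning, with the same spawning ovaries, clic2 (-0.67 ± 0.22, adjusted p = 0.0283) and kcnj2a (-1.61 ± 0.41, adjusted p = 0.00787) fell as well. The inward rectifier kcnj2a measured 13.2, 31.2, 15.7 and 15.7 CPM in river ovaries and 10.7, 2.86, 5.25, 5.63 and 6.60 CPM at spawning, without overlap. Its ocean values were 5.03, 9.38, 7.77 and 17.0 CPM.

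Cell-type markers shifted in ovary alongside these genes. Smooth muscle markers (3 of 7 listed) summed to 1823 to 15101 CPM in ocean ovaries and 170.2 to 530.1 CPM at spawning, endothelial markers (4 of 9) to 827 to 1392 CPM and 487 to 546 CPM, and the steroidogenic genes star, hsd3b1 and fdx1b to 38.3 to 117 CPM and 1366 to 2807 CPM. Their part in the ovarian results was not tested. Of 13 pump and cotransporter genes tested, 4 rose, among them slc12a7b (0.71 ± 0.14) and slc12a2 (0.74 ± 0.23), and 2 fell, beside 16.3% and 20.0% of all genes.

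In testis most tested members were called between spawning and either earlier stage, as were most genes. Calls were fewer from ocean to river and, with TMM scaling, were mostly rises, as over all genes. With library size alone 5084 genes rose and 6563 fell at that step. Between ocean and river 16 members rose and 3 fell of 48 tested (39.6%, against 39.2% of all genes, 25.8% higher and 13.4% lower), with a median log2 difference of 0.81 against 0.25 over all genes. Between ocean and spawning 19 rose and 20 fell (81.25%, against 84.0% of all genes, 40.7% higher and 43.2% lower), with a median of -0.03 against -0.12. Between river and spawning 18 rose and 24 fell (87.5%, against 80.6% of all genes, 38.8% higher and 41.8% lower), with a median of -0.63 against -0.09. With such backgrounds, a call in testis says little about a gene by itself, and the levels are given for that reason.

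**Figure D3:**
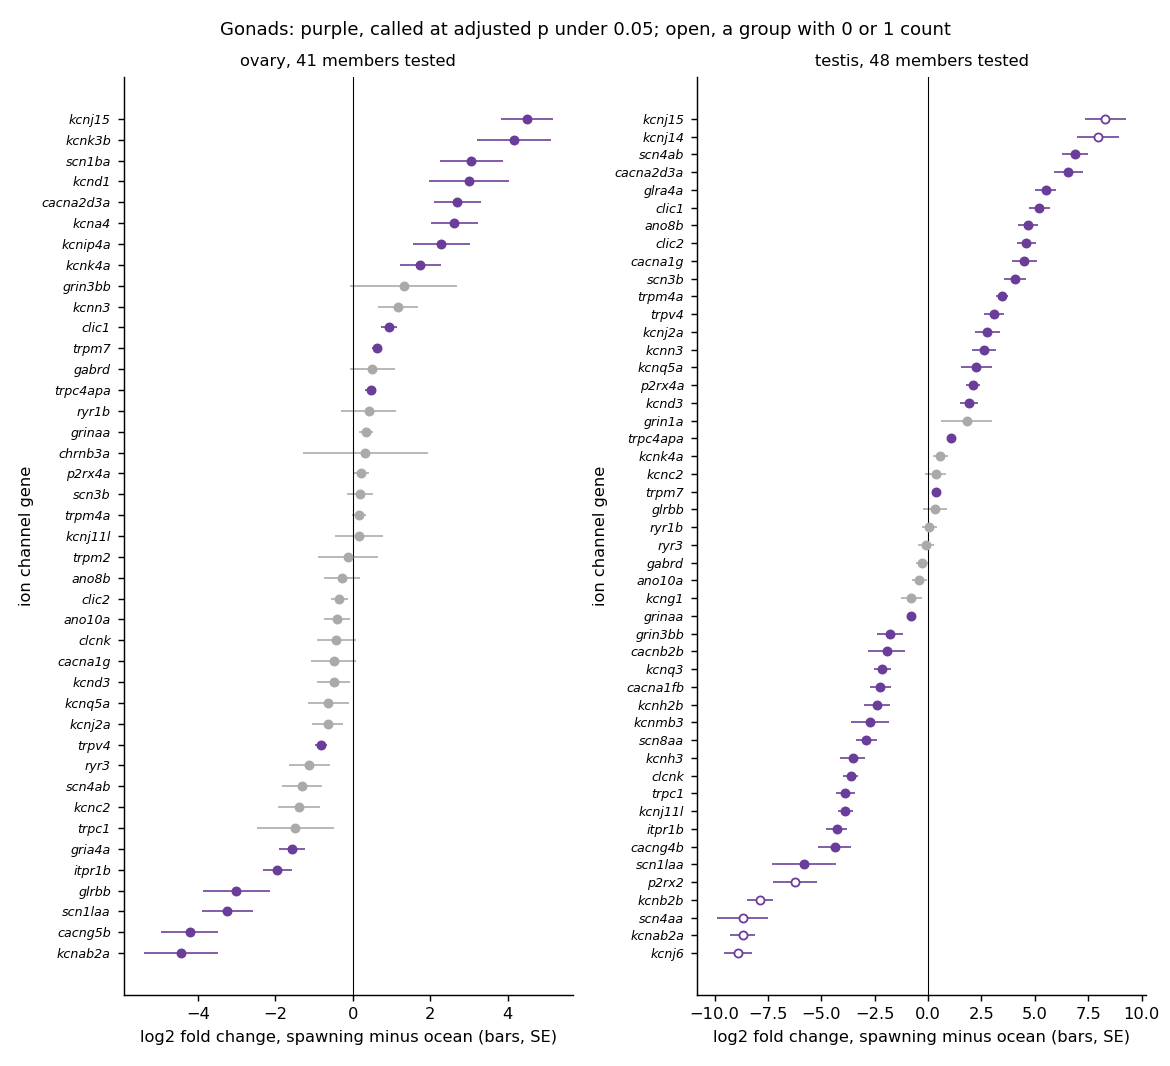
Log2 fold change from ocean to spawning of each ion channel gene tested in ovary (left) and testis (right), with bars for the SE, purple for genes called and open symbols where a group had 0 or 1 count. Points spread more widely in testis, where 39 of 48 are called, than in ovary, where 18 of 41 are.

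Among the channels that were lost from testis at spawning, the inward rectifier kcnj6 measured 3.20, 3.15, 6.96, 2.51 and 4.04 CPM in ocean testes and 4.19, 5.80, 3.51, 6.89 and 7.5 CPM in river testes, and had no count in any of the 5 spawning testes. That is 309 counts against 0, at least 99.1-fold lower against a floor of 3 counts over the group. The delayed rectifier kcnb2b, a voltage-gated potassium channel, first rose from 0.974, 2.31, 1.72, 2.84 and 1.94 CPM in ocean to 15.1, 8.89, 16.3, 12.5 and 10.1 CPM in river testes (2.68 ± 0.32, adjusted p = 0.000272), and then had no count at spawning. It was at least 49.4-fold lower at spawning than in ocean testes and at least 267-fold lower than in river testes. The ATP receptor p2rx2 went from 48 counts over the ocean testes to 0, at least 15.4-fold lower.

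Near-complete losses were also seen for the auxiliary subunit kcnab2a, with 674 counts in ocean testes and 1 at spawning (ratio 648, 95% counting interval 116 to 25644), and for the sodium channel scn4aa, with 647 against 1 (ratio 622, 111 to 24619). The ocean values of scn4aa were 27.6, 1.86, 2.14, 7.01 and 4.52 CPM, so ocean male 1 held much of that total. The same library had 29.2 CPM of scn1laa, where the other ocean testes had at most 0.646 CPM. The size of the scn1laa fall (-5.81 ± 1.48, adjusted p = 0.00183) rests largely on that library. With single libraries left out the difference ranged from -6.15 to -1.85, and the fall was called in all 15 fits.

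Several members peaked in river testes, as kcnb2b did. The EAG-family potassium channel kcnh2b measured 0.209 to 0.662 CPM in ocean, 1.29 to 4.92 CPM in river and at most 0.141 CPM in spawning testes, with log2 differences of 2.22 ± 0.49 from ocean to river and -4.60 ± 0.59 from river to spawning. Its relative kcnh3 went from 0.728 to 2.31 CPM to 1.98 to 6.39 CPM and then to at most 0.183 CPM. The cation channel trpc1 measured 6.40, 15.0, 24.5, 16.7 and 13.3 CPM in ocean, 26.7, 33.7, 58.8, 32.5 and 33.6 CPM in river and 0.365 to 1.85 CPM in spawning testes. The stages of trpc1 and kcnh2b did not overlap. These comparisons share the river libraries.

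The sodium channel scn8aa (1.26 ± 0.41 from ocean to river, -4.16 ± 0.49 from river to spawning) and the potassium channel kcnq3 (1.01 ± 0.36 and -3.16 ± 0.40) gave the same sequence of calls. So did ryr3, at 3.62, 3.73, 3.31, 2.91 and 5.71 CPM in ocean, 13.3, 16.7, 24.6, 14.8 and 13.8 CPM in river and 5.42, 4.15, 5.30, 0.831 and 2.19 CPM in spawning testes (2.10 ± 0.39, adjusted p = 0.00148, and -2.21 ± 0.39, adjusted p = 8.71e-05). River testes stood above both other stages for ryr3 without overlap, and spawning testes overlapped ocean ones. The potassium channel kcnc2 also rose and then fell, at 2.49 CPM or less.

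Other falls by spawning were of genes already present in ocean testes. The calcium release channel itpr1b went from 4.31, 6.30, 7.37, 8.07 and 6.40 CPM to at most 0.596 CPM (-4.27 ± 0.49, adjusted p = 7.38e-07). The calcium channel subunits cacng4b (-4.38 ± 0.77), cacna1fb (-2.24 ± 0.49) and cacnb2b (-1.94 ± 0.87, adjusted p = 0.0495) fell, as did the chloride channel clcnk (-3.63 ± 0.35), from 3.41 to 7.21 CPM to 0.244 to 0.649 CPM. The inward rectifier kcnj11l fell from 11.5, 15.2, 9.64, 12.4 and 11.3 CPM in ocean to 4.72 to 8.50 CPM in river testes (-0.83 ± 0.31, adjusted p = 0.0445) and to 0.238 to 1.40 CPM at spawning (-3.87 ± 0.36). The kcnj11l call from ocean to river was lost in 7 of 15 fits with a library left out. Smaller falls by spawning were those of kcnmb3 (-2.71 ± 0.89), grin3bb (-1.79 ± 0.62) and grinaa (-0.81 ± 0.19), the last from 46.0 to 84.7 CPM to 29.6 to 43.6 CPM.

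The channels gained at spawning included members almost absent before. In ocean testes kcnj15 and kcnj14, both inward rectifiers, had no count, and at spawning they had 208 and 166 counts, at least 72.1-fold and 57.5-fold higher. Spawning testes measured 1.34, 2.14, 0.834, 4.57 and 4.39 CPM of kcnj15. The calcium channel subunit cacna2d3a rose from at most 0.344 CPM in ocean testes to 6.46, 10.1, 5.66, 13.4 and 17.4 CPM (6.56 ± 0.69, adjusted p = 2.62e-07), and the glycine receptor subunit glra4a from 1.51 to 2.89 CPM to 72.1, 68.4, 113, 113 and 88.6 CPM (5.51 ± 0.49, adjusted p = 4.27e-08). None of these overlapped.

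The sodium channel scn4ab rose at both steps. It measured 2.57, 2.89, 4.27, 4.70 and 5.6 CPM in ocean, 32.7, 11, 18.2, 11 and 42.3 CPM in river and 887, 531, 150, 199 and 602 CPM in spawning testes. The log2 difference was 2.52 ± 0.51 from ocean to river (adjusted p = 0.00233) and 6.88 ± 0.61 from ocean to spawning (adjusted p = 3.94e-08), and no 2 stages overlapped. Its duplicate scn4aa fell, as given above, so the pair of sodium channel duplicates moved in opposite directions.

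Of 5 chloride channel and anoctamin genes tested in testis, 3 rose and 1 fell by spawning, where 40.7% of all genes rose and 43.2% fell. The gene clic1 rose from 6.47, 7.14, 4.27, 9.13 and 5.33 CPM to 177, 295, 344, 161 and 220 CPM (5.21 ± 0.48, adjusted p = 6.09e-08). Rises of clic2 (4.60 ± 0.43) and ano8b (4.68 ± 0.48) were of like size, ano8b going from 1.41 to 2.64 CPM to 42.1 to 68.4 CPM. Both had also risen from ocean to river, by 1.33 ± 0.41 and 1.41 ± 0.44, with overlapping groups.

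TRP channels and the remaining risers spanned low and moderate levels. The calcium-activated cation channel trpm4a rose at both steps, from 1.06 to 1.72 CPM in ocean to 1.85 to 4.19 CPM in river (1.11 ± 0.27) and 9.14 to 18.4 CPM in spawning testes (3.48 ± 0.28, adjusted p = 1.22e-08). The channel trpv4 rose by 3.09 ± 0.48 (adjusted p = 1.88e-05), from 0.276 to 1.39 CPM to 3.92 to 12.1 CPM. By contrast trpm7 and trpc4apa were lower in river than in ocean testes (-0.47 ± 0.14 and -0.38 ± 0.12) and higher at spawning (0.35 ± 0.13 and 1.08 ± 0.12).

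The other called rises by spawning in testis were cacna1g (4.51 ± 0.58), scn3b (4.08 ± 0.53), kcnj2a (2.77 ± 0.57), kcnn3 (2.63 ± 0.57), kcnq5a (2.25 ± 0.72), p2rx4a (2.11 ± 0.34) and kcnd3 (1.91 ± 0.42). The T-type calcium channel cacna1g had 5.18 CPM in spawning male 10 and 1.48 to 2.19 CPM in the other spawning testes. The rise of kcnj2a was already present in the river (3.22 ± 0.58, adjusted p = 0.00117), at 0.209 CPM or less in ocean, 0.568 to 2.37 CPM in river and 0.714 to 1.37 CPM in spawning testes. Adjusted p-values of these 7 genes ran from 2.38e-06 to 0.00875.

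**Figure D4:**
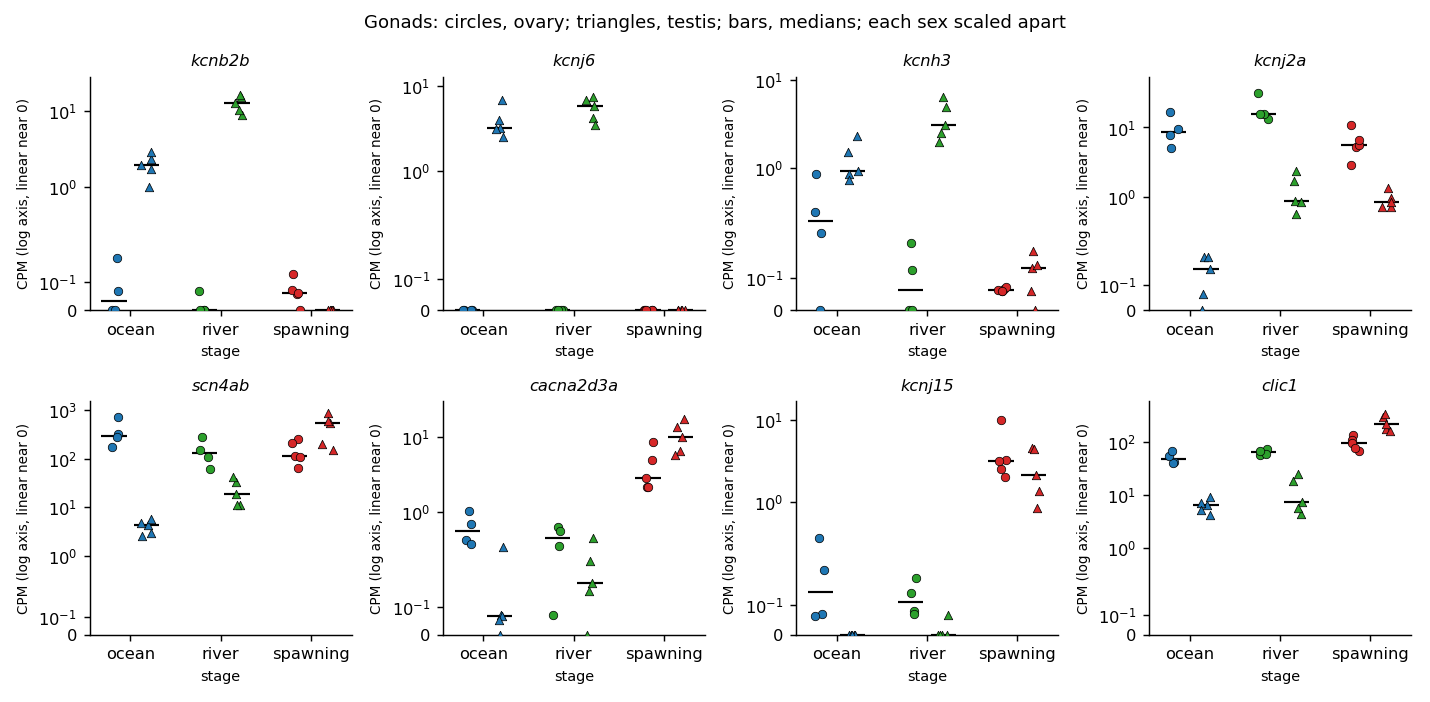
Level of 8 members in each gonad library in CPM (log axis, linear near 0) by stage, with circles for ovary, triangles for testis and bars for medians. In testis kcnb2b and kcnj6 are at 0 at spawning, kcnh3 is highest in the river, and scn4ab, cacna2d3a, kcnj15 and clic1 are highest at spawning.

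By family in testis from ocean to spawning, 2 voltage-gated potassium channel genes rose and 5 fell of 9 tested, 3 inward rectifiers rose and 2 fell of 5, 2 sodium channel genes rose and 3 fell of 5, and 2 voltage-gated calcium channel genes rose and 3 fell of 5. Over all genes tested in testis, 40.7% rose and 43.2% fell. Ocean and spawning differences of ovary and testis come from different fish and can be set side by side. Of 32 members tested in both, 8 (25%) were called in the same direction and 1 (3.12%), trpv4, in opposite directions, against 19.7% and 11.3% of all 25497 genes tested in both. Those going the same way included kcnj15, cacna2d3a, clic1 and trpm7, which rose in both, and kcnab2a, itpr1b and scn1laa, which fell in both.

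The testis markers changed with stage as well. Of the germ-cell genes, sycp3, of the meiotic chromosome axis, was at 301 to 353 CPM in ocean testes, 256 to 412 CPM in river testes and 0 at spawning, and the germ-cell helicase ddx4 was at 746 to 1231, 255 to 677 and 0.0594 to 0.609 CPM. The Leydig cell hormone gene insl3 went from 2.99 to 14.5 CPM in ocean testes to 12050 to 30833 CPM at spawning, star from 6.47 to 24.4 to 1899 to 6148 CPM, and endothelial markers from 11.7 to 17.7 to 404 to 807 CPM in sum. Their part in the testis results was not tested. River male 6 also counted here: without it the ocean to river total was 11 calls (9 higher, 2 lower) in place of 19. With library size alone the split was 11 higher and 4 lower, and without the filter 15 higher and 6 lower, in place of 16 and 3. Over all genes these were 5084 and 6563, and 5530 and 5254, in place of 7273 and 3764.

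The partner lists were drawn up for muscle, and in testis their counts stand beside the 84.0% of all genes called between ocean and spawning. Of 14 pump and cotransporter genes tested, 8 rose and 3 fell. The plasma membrane calcium pump atp2b1a went from 1605 ± 181 CPM (SD, n = 5) to 55.3 ± 4.75 CPM (SD, n = 5; -4.86 ± 0.20, adjusted p = 1.08e-11), and the chloride-importing cotransporter slc12a2 from 48.2 ± 7.76 to 161 ± 39.2 CPM (1.74 ± 0.20). Of the endplate partners 3 of 4 rose, and of the 5 excitation-contraction partners tested 2 rose and 2 fell.

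Between ocean and spawning 6 members were called in both directions across the 6 combinations: ano8b, cacna2d3a, grinaa, trpc4apa, trpm7 and trpv4. They are 9.52% of the 63 members tested, against 22.8% of all genes, which were on average tested in more combinations. For cacna2d3a, log2 values fell by 2.55 in female muscle and rose by 2.69 in ovary and 6.56 in testis, and male muscle went from 25 counts to 1. The difference between tissues was not tested.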

How the data were processed

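RNA-seq of 76 libraries was analysed from 1 table per sex. The authors deposited estimated counts per gene, made before deposit with tools that the submitters' processing notes list without role or order: Salmon 1.8.0, Trim Galore 0.6.4, and R 4.3.3. The genome build is not given in the sources used here, so no coordinates or sequences are printed. Groups came from the stage, sex and tissue labels. Fish numbers repeat across stages but belong to different fish.

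Estimated counts were rounded to whole numbers. Each tissue and sex was fitted apart over its 3 stages in R 4.3.3 with edgeR 4.0.16 (filterByExpr, TMM scaling, quasi-likelihood test, Benjamini-Hochberg adjustment over all genes, threshold 0.05), and checked on simulated counts. Sex by stage interactions were fitted over both sexes within a tissue. Errors on log2 differences are SE from that fit. Folds against 0 counts use a floor of 3 counts over the group, and 95% counting intervals (exact binomial) cover counting error only.

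Alternatives were DESeq2 1.42.0, RLE scaling, library size alone, no filter, fish number as a block, tubule and interrenal marker scores as covariates in head kidney (both scores together chosen after seeing the data), and each library left out. Genes named were up to 10 called members each way by size from ocean to spawning, up to 5 otherwise, with an average log2 CPM of at least 0, plus members chosen by role. Some low or uncalled members were named after their values were seen. The members and lists were chosen with earlier results of these data known. P-values set a difference against the spread between fish, estimated over all stages of a fit.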

Additional observations from a re-analysis of the deposited data

Results flagged for a closer look

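Single libraries stood far from the rest of their group for 9 values among 93 groups examined. The rule was the gap to the nearest library as a share of the group's range, which chance meets in about 1 in 20 groups. That rate need not hold for sparse counts, since a single count in a group otherwise at 0 fills the whole range. In testis, spawning male 10 had 5.18 CPM of cacna1g, where the other spawning testes had 1.48 to 2.19, and ocean male 6 had 0.344 CPM of cacna2d3a against at most 0.0696. Ocean male 1 had 29.2 CPM of scn1laa and 27.6 CPM of scn4aa, against at most 0.646 and 7.01 in the other ocean testes. Spawning male 9 had 0.212 CPM of cacng4b, 0.0707 CPM of kcnab2a and 0.0707 CPM of scn4aa, the last 2 being single counts in a group otherwise at 0. In ovary, spawning female 5 had 9.94 CPM of kcnj15 against at most 3.22, and in female muscle spawning female 5 had 11.3 CPM of p2rx5 against at most 2.51.

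Opposite directions between tissues from ocean to spawning were found for 6 members. They are 9.52% of the 63 tested, against 22.8% of all genes, which were on average tested in more combinations. The difference between tissues was not tested for any of these members. The log2 difference of ano8b was 4.68 in testis and -1.68 in male muscle. For cacna2d3a it was 2.69 in ovary and 6.56 in testis, but -2.55 in female muscle and -4.55 in male muscle. For grinaa it was -0.81 in testis and 2.03 and 1.88 in female and male muscle. For trpc4apa it was 0.46 in ovary, 1.08 in testis and -1.91 in male muscle. For trpm7 it was 0.62 in ovary, 0.35 in testis and -0.97 in female head kidney. For trpv4 it was -0.82 in ovary and -1.41 in female muscle, but 3.09 in testis.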

How the results depend on the processing

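DESeq2 called 3, 6, 5 and 6 members in place of 1, 2, 0 and 3 in female head kidney (river against ocean, then spawning against ocean) and male head kidney (spawning against ocean, then against river). Over all genes DESeq2 called 896 higher and 641 lower, 2691 and 1648, 1790 and 1877, and 1991 and 2752 in that order. The main fit called 7 and 25, 1306 and 861, 1121 and 698, and 1157 and 1322. RLE scaling and no filter each left 1 of 2 in female head kidney from river to spawning, and no filter left 0 of 1 from ocean to river. Over all genes these gave 1052 higher and 1217 lower, 845 and 1032, and 1 and 3, in that order. With library size alone, ocean to river gave 1 call in female and 4 in male muscle, and ocean to spawning 1 in male head kidney. Over all genes these comparisons gave 488 higher and 24 lower, 6260 and 64, and 956 and 987. Placement with library size alone gave 5 members in male muscle and 11 in male head kidney (3.84% and 23.4% of all genes). Placement in spawning libraries gave 4 in female head kidney, 11 in male head kidney and 11 in testis (12.0%, 17.8% and 14.3% of all genes). In female muscle it was 8 of 71 members with library size alone, against 4.89% of all genes, so the side of the background on which members lay depended on scaling. The tubule score gave 0 (ocean to river) and 4 (river to spawning) in female head kidney and 1 (ocean to spawning) in male. Over all genes it gave 1 higher and 1 lower, 1939 and 1960, and 1272 and 898. Both scores together, chosen after seeing the data, gave 7 (ocean to spawning) and 5 (river to spawning) in female and 1 (ocean to spawning) in male head kidney. Over all genes they gave 1608 higher and 2271 lower, 1473 and 1512, and 1036 and 705. The cause of these shifts was not tested.

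Fish numbers do not pair the stages by the labels, where for example number 1 is a male in the ocean and a female in the river. Of 27 pairs of same-numbered libraries, 8 had correlated deviations over 0.1 (range -0.57 to 0.73, median 0.005). Those correlations cannot decide pairing by themselves, since the libraries also differed in tissue content. With fish number as a block, calls were 0 in both sexes of muscle from river to spawning and 6 in male muscle from ocean to spawning. Head kidney calls were 0 in females in all 3 comparisons and 0 in males from river to spawning. Ovary had 10 (ocean to spawning) and 2 (river to spawning), and testis 1 from ocean to river. Over all genes, the block gave 0 of 21695 in female muscle and 111 higher and 135 lower in male muscle from river to spawning. From ocean to spawning in male muscle it gave 3128 and 3069. Female head kidney gave 0, 42 higher and 17 lower, and 0 of 27374 genes, and male head kidney 0 of 26897. Ovary gave 2387 and 3141 (ocean to spawning) and 660 and 951 (river to spawning), and testis 1771 and 578. Signs turned under the block for chrnb1 (0.039), chrnd (0.80) and scn4ab (-0.17) in male muscle and for clcnk (-5.20 female, 1.89 male) in head kidney.

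Leaving out single libraries gave, for ocean to river, ocean to spawning and river to spawning in turn, 0 to 0, 8 to 12 and 7 to 13 calls in female muscle, 0 to 0, 6 to 11 and 3 to 13 in male muscle, 0 to 2, 1 to 4 and 0 to 2 in female head kidney, 0 to 0, 0 to 4 and 1 to 5 in male head kidney, 0 to 0, 16 to 21 and 15 to 20 in ovary, and 11 to 21, 39 to 43 and 41 to 45 in testis. Interactions stayed at 0. All-gene counts of the fits with a library left out are not given here, so these ranges have no background beside them. In male muscle, river to spawning gave 4 without each of river males 2 to 5 or spawning male 8 and 3 without spawning male 9. Male head kidney gave 4 (ocean to spawning) and 5 (river to spawning) without ocean male 8, 5 without river male 5, 1 without spawning male 9 (both) and 1 without river males 3 or 6 or spawning males 6 or 7. Female head kidney from ocean to spawning gave 4 without river female 1.

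Among 116 gene results, 1943 of 2140 alternative values kept direction and call and 30 changed sign, none of them past the threshold with the changed sign. Uncalled results that stayed uncalled count as kept. Of the 2140, 1529 came from fits with 1 library left out, which share most of their data with the main fit. With fish number as a block, 65 of 116 kept direction and call, 46 lost the call and 5 changed sign. With library size alone the sign turned for chrnb1 (0.35, male muscle), chrnd (0.35 female and 0.71 male muscle), scn4ab (0.68, female muscle), clic1 (-0.069) and kcnq5a (-0.014) in female head kidney. With the tubule score, or both scores, it turned for clcnk in males (0.70, 0.68) and for clic1 (-0.081, -0.043) and kcnq5a (-0.33, -0.32) in females. With a library left out the ranges crossed 0 for ano8b (-0.57 to 0.36), scn4ab (-0.996 to 0.126) in female muscle, chrnd (-0.76 to 0.29), scn4aa (-0.042 to 0.36) and scn4ab (-0.41 to 0.83) in male muscle, clcnk (-0.52 to 0.77), clic1 (-0.18 to 0.33) and kcnq5a (-0.29 to 0.40) in female and kcnq5a (-0.34 to 0.019) in male head kidney. Depth limits low genes most, since many values under 0.1 CPM are single counts.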

Other observations

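The NMDA receptor subunit grin3bb was either high or nearly absent in head kidney. It measured 17.5 to 85.3 CPM in 9 of the 24 head kidney libraries: ocean male 6, river females 7 and 9, river males 2, 5 and 6, spawning females 4 and 5 and spawning male 7. The other head kidney libraries had at most 1.23 CPM. In ovary grin3bb measured 17.0 CPM in spawning female 4 and 12.4 CPM in spawning female 5, the females that were also high in head kidney, and at most 0.18 CPM in the other spawning ovaries. River females 7 and 9 had 3.79 and 3.69 CPM in ovary, and river females 1 and 8 had 0.874 and 0.696. Other fish did not match: ocean female 7 had 4.55 CPM in ovary and 0 in head kidney. Spawning male 7, at 17.8 CPM in head kidney, had 0.596 CPM in testis, where spawning male 8 had 1.60. By edgeR grin3bb was not called by stage in head kidney or ovary. In female head kidney its log2 difference from ocean to spawning was 7.59 by edgeR (adjusted p = 0.0787) and 7.71 by DESeq2, which called it (adjusted p = 0.00478), but -0.10 by edgeR with the tubule score as a covariate. With both marker scores as covariates, edgeR called it from river to spawning (3.99, adjusted p = 0.0242).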
